A study of Mus musculus with 721 samples.

Results

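The epiblast of the mouse embryo one day after implantation was described here as 259 cells, taken from 267 E5.5 cells among 721 cells of the series. Members were the cells of E5.5 embryos not labelled VE (visceral endoderm) in which the mean log2(CPM + 1) of 6 endoderm genes was not above that of 3 epiblast genes. CPM is counts per 1000000 counts of the cell. The endoderm genes were Apoa1, Ttr, Cubn, Dab2, Amn and Apoc2, and the epiblast genes were Pou5f1, Tdgf1 and Dnmt3b. Of 262 cells without the VE label, 3 were left out by this rule.

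The study profiled the mRNA of single cells of wild-type C57Bl/6Babr embryos from the blastocyst to the start of gastrulation. The mRNA was captured on beads and amplified as full-length cDNA, after a protocol made for parallel genome and transcriptome sequencing. No embryo carried a transgene or received an experimental treatment beyond its isolation. By the study's methods the trophectoderm of E4.5 embryos was removed by immunosurgery, with anti-mouse antiserum and then rat serum. E4.5 and E5.5 tissue was dissociated in Accutase and E6.5 tissue in TrypLE. E5.5 embryos were taken at an early form that lacked a distinct thickening of the visceral endoderm, the extra-embryonic ectoderm was cut away, and epiblast and visceral endoderm were parted by drawing the embryo through a pipette. Wells were judged by eye to hold a single cell (193 members) or a double (66 members). The members came from 9 embryos on 4 plate groups, which is how the plates are named in the titles: embryo 9 on P1 (39 cells), embryos 1 and 2 on P2.P3 (60 cells), embryos 3, 4, 5 and 6 on P7.P4.P5 (72 cells), and embryos 7 and 8 on P11.P6.P10 (88 cells). Each cell had between 120148 and 2347590 counts (median 783785) and between 4054 and 9694 detected genes (median 6519). The replicate was the embryo. Counts were summed over the members of each embryo, and embryo 5, with 2 cells, was not summed, which left 8 embryo sums.

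At this age the epiblast has left the naive state of the blastocyst and forms a cup-shaped epithelium around a new lumen. The cells divide fast, place new DNA methylation through Dnmt3a and Dnmt3b, and become able to answer the Nodal, BMP and FGF signals that later set up the primitive streak. This intermediate condition is often called formative pluripotency, with Otx2, Pou3f1 and Fgf5 among its usual marker genes.

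The values that chose the members are given as a description. The epiblast mean exceeded the endoderm mean by a median of 10.05 log2 units in members, and the closest members exceeded it by 3.49, 3.94 and 4.80. In the nearest cells left out the difference was -4.42, -4.99 and -7.19, so no cell lay near the line of equal means. The plot of both means shows the gap. An endoderm mean over 2 was found in 12 members, from 8 single and 4 double wells.

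**Figure D1:**
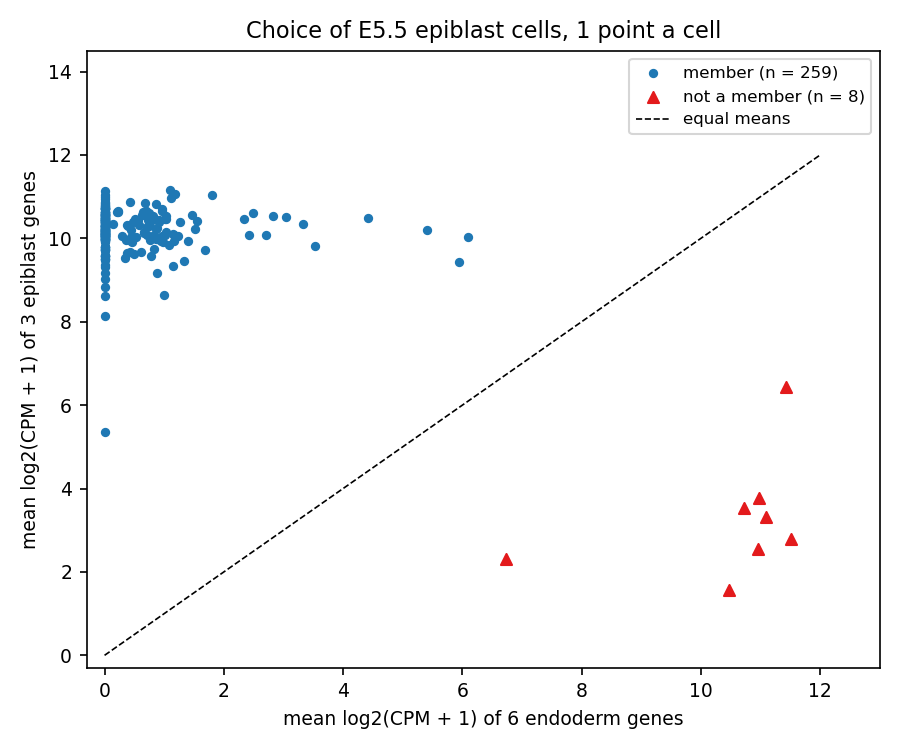
Choice of the members, 1 point a cell. The horizontal axis is the mean log2(CPM + 1) of 6 endoderm genes and the vertical axis that of 3 epiblast genes; 259 members (circles) lie above the line of equal means and the 8 other E5.5 cells (triangles) below it, with a single member at an epiblast mean of 5.36.

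Of the 5 epiblast markers, Pou5f1 and Dnmt3b were part of the rule. Pou5f1, the pluripotency transcription factor Oct4, was at 1449 to 1921 CPM in the 8 embryo sums (median 1602), and Dnmt3b, a de novo DNA methyltransferase, at 2210 to 2832 (median 2527). Pou3f1, a POU factor of the formative epiblast, ran from 79.4 to 155 CPM (median 120), and reached 10 CPM in 241 of 259 members and in 2 of the 8 cells that were not members. Otx2 and Fgf5 did not part the epiblast from the endoderm cells. Otx2, a homeodomain factor of epiblast and anterior visceral endoderm, had a median of 123 CPM over members and 201 CPM over the 8 other cells. Fgf5, a fibroblast growth factor, had a median of 42.8 CPM over members, with 183 of 259 at 10 CPM or more, and of 120 CPM over the other cells, with 6 of 8 at 10 CPM or more. Otx2 reached 10 CPM in 234 of 259 members and in 6 of the 8 other cells. Of the 5 markers, only Pou3f1 was both outside the rule and higher by median in members (97.5 CPM) than in the other cells (0 CPM).

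Markers of other cell types were looked for in the members. Apoa1 and Ttr were part of the rule, which fixed their low values here. Apoa1 was at 10 CPM or more in 19 of 259 members and Ttr in 11, while all 8 cells outside the part had 1301 CPM or more of Apoa1. Outside the rule, Trf (transferrin) was at 10 CPM or more in 38 members, Gata4 in 4, Gata6 in 1 and Afp in 5. Foxa2 and Cer1, factors of endoderm and anterior visceral endoderm, reached 10 CPM in 0 of 259 members, which allows a share of up to 1.16% by counting error alone, although the cells come from 9 embryos and are not independent draws. The visceral endoderm list summed to 128 to 283 CPM in the embryo sums, and most of it was Lrp2 (109 to 235 CPM), a scavenger receptor that the epiblast also makes. A single member stood apart: a single well of embryo 1 with 6.02 CPM of Pou5f1 and 13.5 CPM of Dnmt3a held 102 CPM of Elf5, 190 of Eomes, 113 of Cdx2, 155 of Esrrb and 131 of Bmp4, beside 193 CPM of Pou3f1. These are markers of the extra-embryonic ectoderm, and the rule, which weighs endoderm genes only, kept this cell. By its methods the study set aside trophoblast cells with counts of Elf5, Wnt7b and Tex19.1. This cell, with 236 CPM of Wnt7b and 87.3 CPM of Tex19.1, was nonetheless in the table. Without it and the 12 members with an endoderm mean over 2 the counts of genes given below moved little: 842 in place of 813 genes changed at E5.5 against the mean of the neighbouring stages, and 231 in place of 235 genes were variable in every embryo.

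The most expressed programs were those of protein synthesis and energy supply. Fixed gene lists were summed in CPM for each embryo, which gives the share of all counts that a program took. The 75 cytosolic ribosomal protein genes with a row took 93396 to 134083 CPM (median 111027), with a median of 11.1% of all counts. Chaperones took 24081 to 25825 CPM, with the most counts in Hsp90ab1 and Hsp90aa1, and glycolysis took 18234 to 23372 CPM, with the most counts in lactate dehydrogenase Ldha and aldolase Aldoa. Oxidative phosphorylation followed with 17429 to 20175 CPM, the cytoskeleton with 16021 to 18195 and translation factors with 15946 to 18193. Replication and mitosis genes took 5025 to 6580 and 4766 to 6212 CPM.

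Levels of different genes were compared per kilobase of exon. On this scale (CPM per kb, mean ± SD over 8 embryos) Rplp1 was the highest gene at 8368 ± 1764. It encodes a protein of the ribosomal stalk. Dppa5a, an RNA-binding protein of pluripotent cells, was among the highest at 5690 ± 1015, with 4862 in the lowest and 7784 in the highest embryo. Of the 20 highest genes 11 were ribosomal protein genes, and the others included ferritin light chain Ftl1 (3525 ± 486), the cytokine Mif (3403 ± 673) and beta-actin Actb (2825 ± 251). Ribosomal rows carry an uncertainty, because reads shared with processed pseudogenes were dropped at mapping and 1 of the 20 rows, Gm10123, is itself such a pseudogene.

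Programs that mark the identity of the cells took a smaller share. DNA methylation genes summed to 4103 to 5841 CPM, formative genes to 3824 to 5041 and core pluripotency genes to 3855 to 4648. Within the first of these lists Dnmt3a was at 872 to 1412 CPM (median 1124), Uhrf1, which guides maintenance methylation, at 241 to 510, and Tet1, an enzyme that oxidises methylcytosine, at 144 to 234. Nanog, a naive pluripotency factor that returns later at the streak, was at 4.31 CPM in the lowest embryo and had a median of 10.6 CPM. Primitive streak genes summed to 16.3 to 53.3 CPM and early neural genes to 8.89 to 17.2 CPM, and these were the lowest of the plotted programs.

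**Figure D2:**
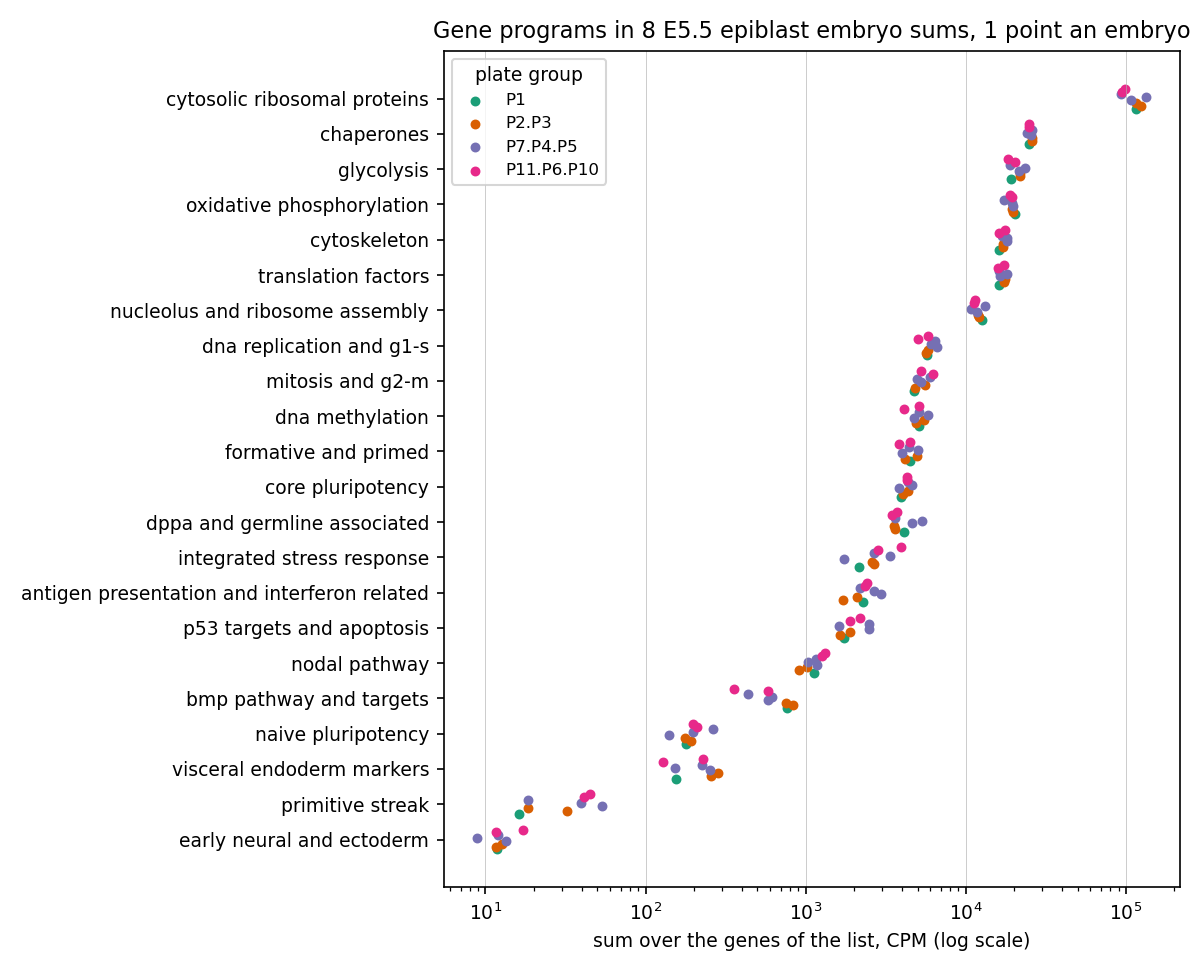
Sum over the genes of each list in CPM (horizontal, log scale) for 8 embryo sums, coloured by plate group; 1 point is 1 embryo. Ribosomal protein genes lie between 93396 and 134083 CPM and early neural genes between 8.89 and 17.2 CPM, and the widest relative ranges include the integrated stress response (1740 to 3960) and the BMP pathway (356 to 832).

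In the Nodal, BMP and FGF lists a co-receptor or a target gene held the most counts, and not a ligand. This order is by share of counts and not per length. In the Nodal pathway it was the co-receptor Tdgf1, which was part of the rule, and the ligand Nodal was at 24.6 to 94.4 CPM (median 47.6). Lefty1, a secreted Nodal inhibitor and target, ran from 7.55 to 224 CPM. Embryo 3 held the 224 CPM and the next embryo, embryo 4, held 83.8, and across cells 93 of 259 members (35.9%) had 10 CPM or more. In the BMP pathway the target Id3, an inhibitor of bHLH factors, took the largest part of the sum with 173 to 613 CPM, while the ligand Bmp4 had a median of 4.52 CPM and Id1 was at 5.07 to 67.6. Id3 was lowest in embryo 8 and highest in embryo 1. The FGF target Etv5 was at 135 to 259 CPM and the ligand Fgf4 at 48.2 to 102.

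Within embryos, the spread among single cells was measured, after the method of the study, by the squared coefficient of variation (CV squared, variance over squared mean) of CPM. For each embryo, the log10 of this value was set against the rolling median of genes with a like mean, so that 0 is a gene as variable as others of its level. The 192 single wells of the 8 embryos gave a value for 5580 genes in every embryo. Of these, 235 genes (4.21%) lay above 0 in all 8 embryos and 653 (11.7%) lay below. The ranking was only in part shared, with Spearman correlations of 0.30 to 0.54 across genes for the 28 pairs of embryos.

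Among the 235 genes above 0 in all 8 embryos, Id3 had the highest median distance. Its distance was 0.70 (0.36 to 0.89 over the embryos). Over the 192 cells Id3 was at 0 in 26 (13.5%), had a median of 228 CPM, and reached 994 CPM at the 90th percentile and 2529 CPM in the highest cell. The median of the cells was lowest in embryo 8 at 110 CPM and highest in embryo 2 at 375 CPM, and the cells of every embryo ran from 61.1 CPM or less up to 768 CPM or more. Id3 had no close partner. Its strongest positive Spearman correlation within embryos over all genes was 0.26 (Stxbp2, 192 cells), and those with Id1 and Id2 were 0.12 and -0.04. Id3 did not follow the number of detected genes (0.04).

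The next places held a nuclear RNA, signalling and ubiquitin genes and metabolic enzymes. Dqx1, a putative helicase, was at 0 in 126 of 192 cells and at 1148 CPM in the highest. Malat1, a nuclear long noncoding RNA, had a distance of 0.56 and a range of 276 CPM at the 10th to 2107 CPM at the 90th percentile. Calm2 (calmodulin, 0.53), Ube2d3 (a ubiquitin-conjugating enzyme, 0.52), Odc1 (ornithine decarboxylase, the first step of polyamine synthesis, 0.50) and Eef2 (elongation factor, 0.48) formed opposed groups. Odc1 and Eef2 rose together over cells (0.68, positive in 8 of 8 embryos), while Odc1 and Calm2 went apart (-0.60, negative in 8 of 8). Eef2 and Calm2 had the highest and lowest correlation with Odc1 of 7907 genes in these same cells. Their agreement between embryos is therefore not independent of the choice. Both sides of this axis moved with complexity: the correlation with the number of detected genes was 0.53 for Odc1, 0.52 for Eef2, -0.36 for Calm2 and -0.40 for Fam136a, and the part of complexity in their spread was not tested.

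**Figure D3:**
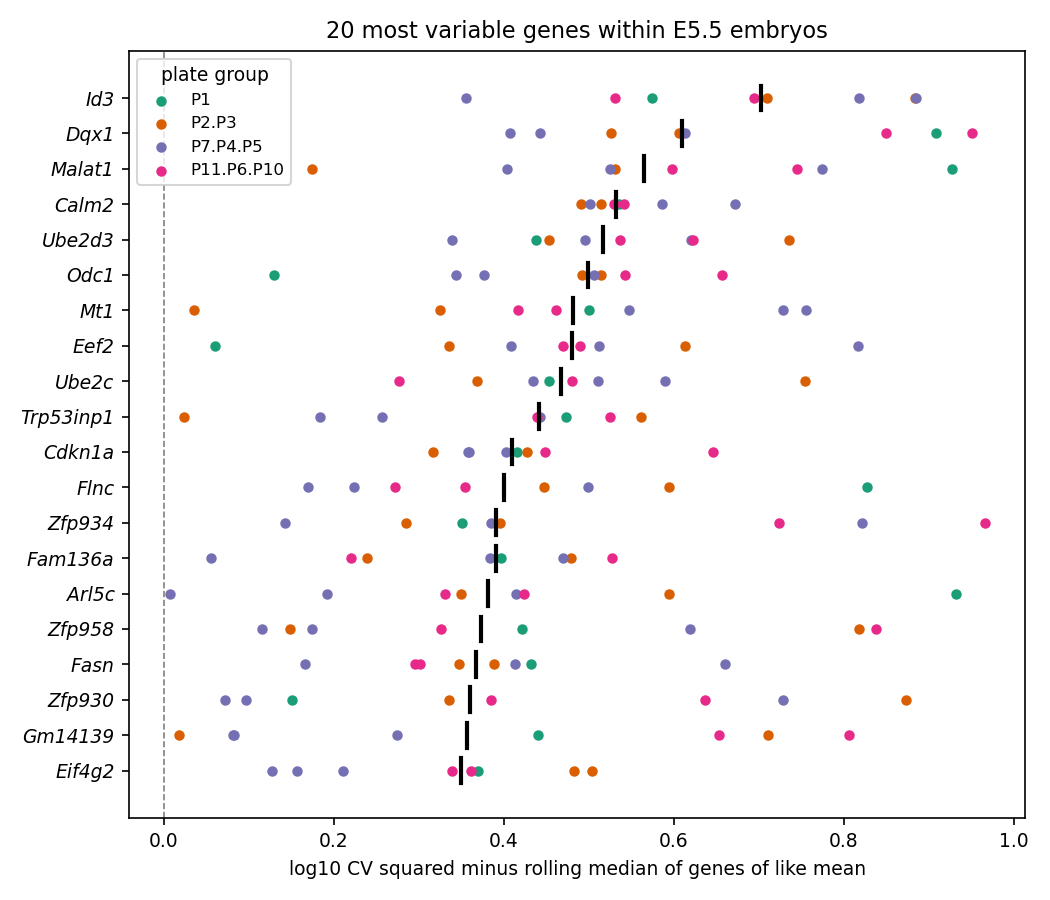
Distance of log10 CV squared from the rolling median of genes of like mean (horizontal) for the 20 most variable genes, 1 point per embryo coloured by plate group; the black bar is the median over 8 embryos and the dashed line is 0. All points lie above 0, which was a condition of the choice, and Id3 has the highest median (0.70).

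Metallothioneins, which bind zinc and other metals, were a tight pair. Mt1 had a median of 550 CPM over cells, was at 0 in 0 of the 192 cells, and reached 3452 CPM. Its distance was 0.48, from 0.04 in embryo 2 to 0.76 in embryo 4. Mt1 and Mt2 correlated at 0.76 over cells within embryos (0.48 to 0.97, positive in 8 of 8 embryos). Of 7907 genes, Mt2 had the highest correlation with Mt1 in these same cells. Mt1 correlated with detected genes at 0.25.

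Some targets of p53 also moved together. Cdkn1a, the cyclin-dependent kinase inhibitor p21, was at 0 in 75 of 192 cells (39.1%), at a median of 25.6 CPM and at 1189 CPM in the highest cell. Its median was 0 in embryos 9, 1 and 4 and 212 CPM in embryo 3. Phlda3, an inhibitor of Akt, moved with it at 0.55 over cells (0.26 to 0.86, positive in 8 of 8 embryos), and Ccng1, a cyclin that p53 induces, at 0.27 (positive in 8 of 8). Phlda3 had the highest correlation with Cdkn1a of 7907 genes in these same cells, so its agreement between embryos is not independent of the choice. Cdkn1a and Trp53inp1, a further p53 target (distance 0.44), correlated at 0.32 (7 of 8). Other pairs were weaker, with 0.19 for Cdkn1a and Mdm2 (6 of 8) and 0.16 for Phlda3 and Trp53inp1 (5 of 8), and the median over all pairs of the list was 0.052, near the 0.019 of all genes. Neither gene followed the number of detected genes closely (-0.04 for Cdkn1a and 0.20 for Trp53inp1). Points share their library and embryo in all of these correlations, which are descriptions.

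Some cell cycle genes rose together over cells and others went apart. Ube2c, an enzyme of mitotic exit, had a distance of 0.47 and ran from 13.6 CPM at the 10th to 667 CPM at the 90th percentile of cells. It correlated with the mitotic kinase Cdk1 at 0.48 and with the checkpoint protein Bub3 at 0.52, both positive in 8 of 8 embryos. Against Slbp, which binds histone mRNA in S phase, and the replication clamp Pcna it was at -0.41 and -0.32, negative in 8 of 8. Bub3 and Slbp had the highest and lowest correlation with Ube2c of 7907 genes in these same cells. Their agreement between embryos is therefore not independent of the choice. With Cdc20, also of the mitosis list, Ube2c was at 0.20 (positive in 6 of 8). Of the 30 mitosis genes 5 were above 0 in all embryos, and the median correlation among the 30 was 0.157 against 0.019 among all genes. As whole lists the opposition was weak. The means of the mitosis and replication lists correlated at -0.18 over cells (-0.51 to 0.35, negative in 6 of 8 embryos and positive in 2).

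Ribosomal protein genes varied less than genes of like mean and had the highest median pairwise correlation of the lists. Their median distance was -0.22, below 0 in 8 of 8 embryos, and 40 of 75 genes were below 0 in every embryo. The median correlation between pairs of them was 0.413. Replication-dependent histones lay lower still, with a median distance of -0.32, but only 5 of the 44 listed genes had a value in every embryo. Of these 5, 3 were below 0 in every embryo. By contrast, lists with a median above 0 in 8 of 8 embryos included BMP genes (0.34, 3 genes), extracellular matrix genes (0.17, 8 genes, with 4 above 0 in all embryos), the integrated stress response (0.13, 13 genes), imprinted genes (0.11, 11 genes) and p53 targets (0.09, 12 genes), beside a median of -0.02 over all genes.

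**Figure D4:**
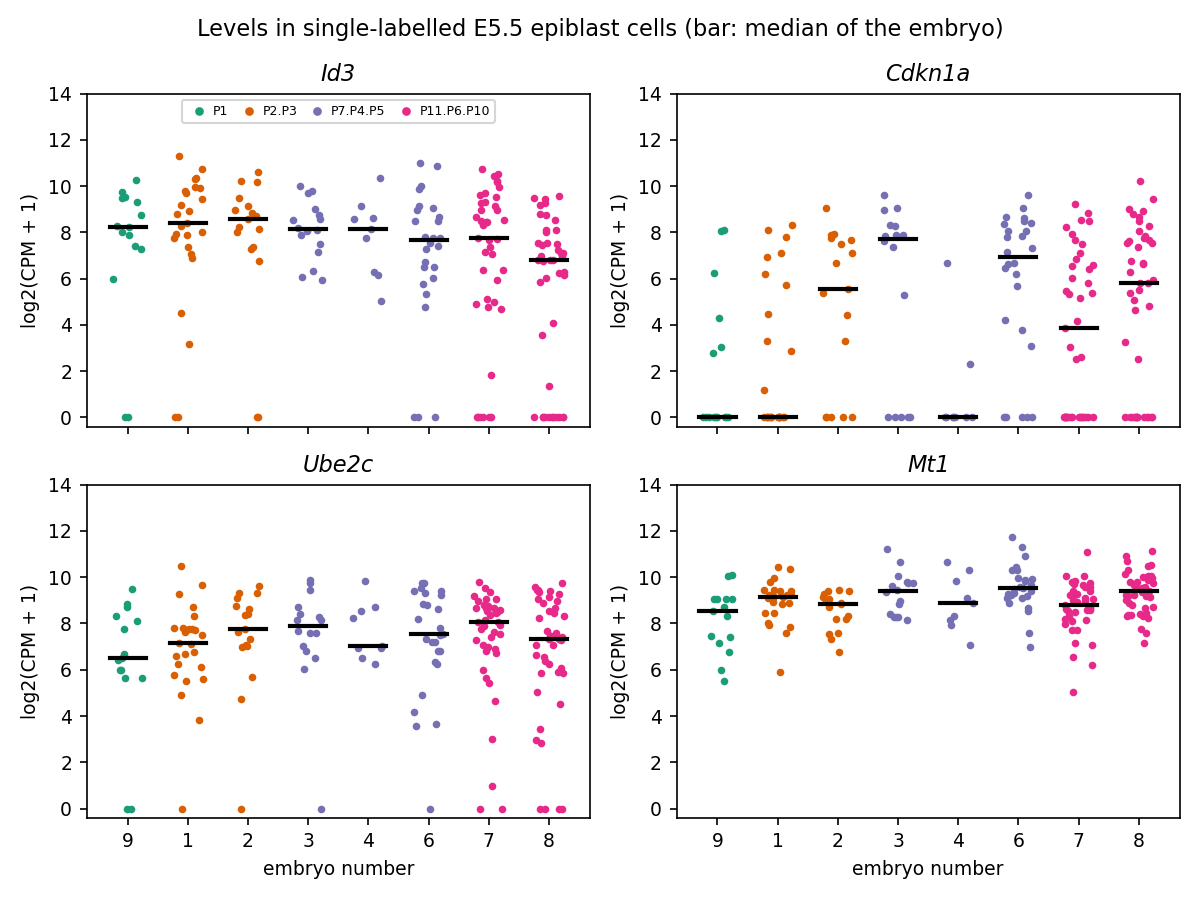
Log2(CPM + 1) of Id3, Cdkn1a, Ube2c and Mt1 in 192 single wells, by embryo (horizontal) and plate group (colour); 1 point is 1 cell and the bar is the median of the embryo. Id3 and Cdkn1a have cells at 0 beside cells above 9 in embryo 8, and no cell is at 0 for Mt1.

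Principal components of the 192 single cells, centred by embryo over 7907 genes, were led by a component of complexity. Component 1 held 4.80% of the variance and correlated with the number of detected genes at 0.97, with the mean of the replication list at 0.50 and with that of the mitosis list at 0.44. Its positive side was led by Tmem132a, Ucp2, Eif4ebp2 and Slc25a1 and its negative side by Gm11525, Zfp934, Gm14074 and Wdr61. The 100 genes at its positive end had a median exon length of 6.14 kb and those at its negative end 2.16 kb. Component 2 held 1.35% and correlated with detected genes at 0.15, with Mterfd1 and Rad1 against BC005537 and Zdhhc21, none of which was in a gene list. Component 3 held 1.02% and was led by Prc1, Hmmr, Cenpe and Cenpf, which act in mitosis, against Cdc45, which loads the replicative helicase, and Cdkn1a, and these genes were named after their weights were seen. It correlated with the mean of the mitosis list at 0.66 and with that of the replication list at -0.38.

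Plate groups and embryos accounted for a small part of the spread between cells. Over 7880 genes the median share of the sum of squares of log2(CPM + 1) was 1.44% between plate groups, 3.10% between embryos of a plate group and 95.1% between cells of an embryo, where a gene with no structure would give 1.16%, 1.94% and 96.9% by degrees of freedom. Ribosomal protein genes stood higher between plates with 7.45%, and between embryos with 8.06%. Rps15 had the highest plate share with 23.7%, followed by Uqcrh, a subunit of respiratory complex III, with 23.0% and Rpl13a with 22.8%. The ribosomal sum was 98915 and 93870 CPM in embryos 8 and 7 of P11.P6.P10, 116222 CPM in embryo 9 of P1, and 115115 and 123719 CPM in the embryos of P2.P3, but 93396 to 134083 CPM within P7.P4.P5. P11.P6.P10 lay below P1 and P2.P3, and P7.P4.P5 overlapped all of them.

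Few genes were called between plate groups by edgeR. On simulated counts its plate test recovered 6 of 67 genes changed 2-fold and 45 of 66 changed 8-fold, so few calls do not show that the groups were alike. edgeR's quasi-likelihood test over 8 embryo sums called 1 of 15479 genes at an adjusted p of 0.05 or less (0.00646% of the genes tested), and 521 genes had an unadjusted p under 0.05. Plate and litter cannot be told apart, since the study names its batches as litters. The gene was Lrrcc1, which encodes a centrosomal protein, at 178 CPM in embryo 9 of P1 and 14.4 to 34.8 CPM in the others (adjusted p = 0.00908). It was the gene higher in P1 than in the mean of the other groups (0.00646% of the genes tested), and the contrasts of P2.P3, P7.P4.P5 and P11.P6.P10 called 0 genes by edgeR, with 462, 843 and 535 at an unadjusted p under 0.05 and 40, 125 and 33 called by DESeq2. P1 is a single embryo whose 24 double wells outnumber its 15 single wells, and with single wells alone Lrrcc1 had an adjusted p of 1.0. Without embryo 9 the test called 0 genes, and without embryo 6 it called 8. DESeq2 called 22 genes in the plate test. No gene of the 35 lists was called by edgeR in the 4 plate contrasts. Id3, with an unadjusted p of 0.0221, and Lefty1, with 0.00217, both had an adjusted p of 1.0.

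Against the mean of the neighbouring stages, antigen presentation was the list with the highest share of genes called higher at E5.5. Sums of 32 E4.5 epiblast cells in 5 embryos and of 144 E6.5 epiblast cells in 13 embryos were compared with the 8 E5.5 sums. E4.5 cells were chosen by Sox2, Fgf4 and Tdgf1 against Gata4, Gata6, Sox17 and Pdgfra, E6.5 cells by the same rule as E5.5 with T, the streak gene brachyury, under 10 CPM, and embryos labelled E6.75 counted among the E6.5 group. These 16 genes were not tested. The call was an adjusted p of 0.05 or less and a change over 2-fold (1 on the log2 scale) by edgeR's quasi-likelihood test. Against the mean of the other stages 542 of 12802 genes were higher (4.23%) and 271 lower (2.12%), and the median log2 change of all genes was 0.12. Stage, plate, litter and the way the cells were isolated cannot be told apart. The total depth was 216755620 counts at E5.5, 21866264 at E4.5 and 116870956 at E6.5.

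Of the 14 antigen presentation and interferon related genes 8 were higher at E5.5 and none was lower, with a median log2 change of 1.68 over the list. Tap1 and Tap2, the subunits of the transporter that brings peptides to MHC class I, were near absent elsewhere. Tap1 (chr17:34187553-34197225, plus strand, GRCm38) was at 2.77 to 15.0 CPM in the 8 E5.5 sums (median 3.69) and at 0 counts in all 5 E4.5 and all 13 E6.5 sums, so that the E5.5 mean was at least 47.4-fold higher than E4.5 and 253-fold higher than E6.5, against a floor of 3 counts over the stage. Tap2 (chr17:34203527-34216321, plus strand) was at 2.51 to 28.6 CPM (median 9.86) against 0 counts at E4.5, at least 102-fold higher, and 2 counts at E6.5. Its level shares reads with Gm15821, an overlapping antisense RNA, since strand-aware counting is not stated. Tap1 and Tap2 passed the filter on low counts only through the E5.5 sums, where they were high. Their p values are therefore not given, and their calls, part of the 8, are a description.

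Subunits of the immunoproteasome and its activator, which cut those peptides, were part of the same group. Psmb8 was at 16.7 to 145 CPM at E5.5, at 0 counts at E4.5 and at 0 to 23.0 CPM at E6.5, and embryo 1 at 16.7 CPM was the only E5.5 embryo within the range of E6.5. Psmb10 was at 350 to 853 CPM against 91.0 to 204 at E4.5 and 97.0 to 323 at E6.5, with no overlap (log2 1.73 ± 0.20 SE, adjusted p = 7.23e-07). The activator subunit Psme2 was at 248 to 463 CPM against 19.5 to 80.2 and 88.1 to 224, again with no overlap (2.24 ± 0.23, adjusted p = 8.09e-08), and Psme1 at 110 to 224 CPM overlapped E6.5, which reached 145 (1.26 ± 0.29, adjusted p = 0.00595). The restriction factor Bst2 (268 to 401 CPM, log2 1.36 ± 0.27, adjusted p = 0.00121) and Ifitm3, a membrane protein that blocks virus entry (69.4 to 172 CPM, log2 1.50 ± 0.42, adjusted p = 0.0228), completed it. Bst2 overlapped E6.5, which reached 351 CPM, and Ifitm3 overlapped E4.5, which reached 128 CPM. The class I heavy chain H2-K1 was at 28.8 to 89.8 CPM and was not called.

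Genes outside the list with every E5.5 embryo above all 18 embryos of the other stages included further interferon-related genes. Of the 542 genes called higher 43 lay above in this way, and of the 271 called lower 10 lay below. The number among all 12802 genes tested is not given here, so these counts have no background beside them. Zbp1, a sensor of left-handed nucleic acid, was at 6.31 to 36.1 CPM at E5.5, at 0 counts at E4.5 and at 6.18 CPM or less at E6.5 (adjusted p = 0.00155). Oasl2, an interferon-induced oligoadenylate synthetase-like protein, was at 4.97 to 28.6 CPM against at most 3.09 and 2.66 (log2 4.76 ± 1.16, adjusted p = 0.00885). Others among the 10 largest rises were Galr2, a galanin receptor (1.69 to 28.3 CPM), Padi6, an oocyte-associated deiminase (4.53 to 25.9 CPM), Epn3, an endocytic adaptor (0.06 to 10.9 CPM), and Gm4969 (12.3 to 46.5 CPM). Epn3 had 0 counts at E4.5, where the floor was 0.137 CPM, so its lowest E5.5 embryo cannot be told apart from E4.5. With 1 count at E6.5, it passed the filter on low counts only through the E5.5 sums.

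Promoters of members of the list are shown because the genes moved together. RefSeq windows of GRCm38.p6, from 250 bases before to 50 after the start of the gene, were found for 13 of the 14 genes and are printed 5′ to 3′ on the strand of the gene. Capitals mark 2 copies of GAAA with any 2 bases between them, the core of the interferon-stimulated response element, searched on both strands, and matches may overlap. Psme1 (chr14:55578244-55578543, plus strand), Ifitm3 (chr7:141010695-141010994, minus strand) and Bst2 (chr8:71537423-71537722, minus strand) held it, and Tap1 (chr17:34187306-34187605, plus strand) did not.
Psme1: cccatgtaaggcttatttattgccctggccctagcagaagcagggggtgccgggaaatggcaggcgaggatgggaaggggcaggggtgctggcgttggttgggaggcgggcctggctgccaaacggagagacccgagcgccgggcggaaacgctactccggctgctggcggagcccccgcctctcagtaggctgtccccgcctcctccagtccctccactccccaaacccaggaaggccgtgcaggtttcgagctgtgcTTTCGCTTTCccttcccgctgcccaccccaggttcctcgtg
Ifitm3: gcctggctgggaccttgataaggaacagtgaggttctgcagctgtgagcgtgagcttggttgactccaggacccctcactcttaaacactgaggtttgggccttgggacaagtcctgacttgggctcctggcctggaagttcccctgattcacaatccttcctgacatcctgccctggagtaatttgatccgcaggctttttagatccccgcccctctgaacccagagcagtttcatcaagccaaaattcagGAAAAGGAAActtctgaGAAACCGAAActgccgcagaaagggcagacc
Bst2: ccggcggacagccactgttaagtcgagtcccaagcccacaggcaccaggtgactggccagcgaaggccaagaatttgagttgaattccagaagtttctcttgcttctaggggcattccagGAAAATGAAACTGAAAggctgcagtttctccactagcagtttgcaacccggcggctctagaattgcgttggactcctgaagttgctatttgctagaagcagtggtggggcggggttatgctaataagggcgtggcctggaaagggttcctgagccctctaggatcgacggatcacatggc
Tap1: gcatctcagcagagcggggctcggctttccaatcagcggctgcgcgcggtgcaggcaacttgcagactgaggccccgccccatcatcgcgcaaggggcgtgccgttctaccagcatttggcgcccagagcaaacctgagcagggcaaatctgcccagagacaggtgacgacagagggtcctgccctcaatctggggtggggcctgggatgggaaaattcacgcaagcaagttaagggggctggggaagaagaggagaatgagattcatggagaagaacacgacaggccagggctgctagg
The match in Psme1 lies on the opposite strand, just past the start, and Bst2 holds 2 overlapping matches. The motif was in 5 of the 13 genes, and in 3 of the 7 called genes with a window, while 3.44% of all 32851 windows and 3.99% of 27025 gene symbols held it. B2m and Ifitm2 held it and were not called, while Psmb8, Psmb10 and Psme2 were called, did not hold it and are not printed. The list was gathered in part as interferon related genes, so its share against all windows says nothing about the change at E5.5. A match is a description of letters, not of binding.

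**Figure D5:**
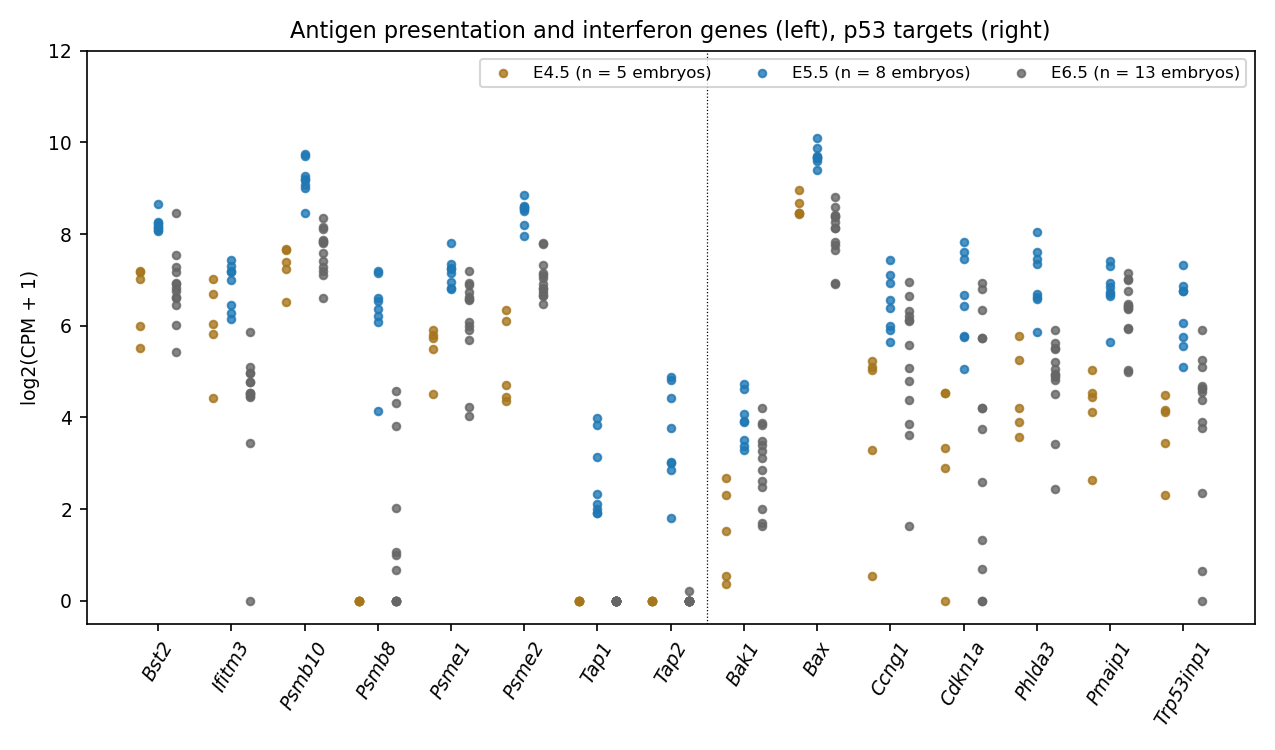
Log2(CPM + 1) of the called genes of the antigen presentation list (left) and of the p53 list (right), 1 point per embryo sum at E4.5 (n = 5), E5.5 (n = 8) and E6.5 (n = 13). Tap1 is at 0 in all E4.5 and E6.5 embryos, and Psmb10, Psme2 and Bax have every E5.5 point above all others.

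Targets of p53 were the next group, with 7 of 17 higher and none lower (median log2 change 0.98). Bax, the pore-forming killer of mitochondria, was at 673 to 1102 CPM against 349 to 495 at E4.5 and 119 to 451 at E6.5, with no overlap (log2 1.35 ± 0.18, adjusted p = 1.82e-05). Phlda3 was at 57.5 to 264 CPM against 10.8 to 53.5 and 4.40 to 59.2 (2.27 ± 0.35, adjusted p = 9.78e-05), where embryo 4 at 57.5 CPM lay within the range of E6.5. Trp53inp1 changed by 2.33 ± 0.52 (adjusted p = 0.00413) and Pmaip1, the BH3-only protein Noxa, by 1.49 ± 0.28 (adjusted p = 0.00067), while Bak1 and Ccng1 passed with adjusted p values of 0.0323 and 0.0454. Cdkn1a (32.4 to 228 CPM against at most 22.3 and 121) had an adjusted p of 0.0485 and failed the call in 20 of the alternatives, among them DESeq2. Trp53 itself, at 147 to 243 CPM, was not called. Against E4.5 alone 6 of the 17 p53 targets were higher, and against E6.5 alone 3 of 17.

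Sugar metabolism changed in both directions, with 6 of 19 glycolysis genes higher and 3 lower. Eno1 (enolase) was at 2358 to 3228 CPM against 458 to 1034 at E4.5 and 702 to 1833 at E6.5 (log2 1.46 ± 0.14, adjusted p = 2.28e-08). Slc16a3, which exports lactate, was at 548 to 805 CPM against at most 244 and 453 (1.64 ± 0.21, adjusted p = 8.89e-06). Both lay above every embryo of the other stages, and Ldhb, Tpi1, Pfkl and Gpi1 were higher as well, Gpi1 only just (1.02 ± 0.21). The glucose transporter Slc2a3 went the other way, with 6.58 to 55.2 CPM below all other embryos (-2.22 ± 0.45, adjusted p = 0.00166), beside Pfkp and the lactate carrier Slc16a1. Oxidative phosphorylation had 0 of 29 genes called in this contrast.

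In the integrated stress response 4 of 18 genes were higher: Phgdh and Psat1, which make serine, Sesn2 and Ddit4, which restrain mTOR. Phgdh was at 258 to 678 CPM against 35.9 to 188 and 42.7 to 361 (log2 1.55 ± 0.27, adjusted p = 0.000399), and Ddit4 at 11.5 to 30.4 CPM against at most 1.86 and 9.74 (4.46 ± 0.97, adjusted p = 0.00347). The list also varied most between embryos of all but the ribosomal and core pluripotency lists, with a median embryo share of 8.05%, and Asns, asparagine synthetase, ran from 34.8 CPM in embryo 3 to 361 CPM in embryo 8. Atf4, whose protein drives these genes, was at 160 to 357 CPM.

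Of the genes of identity, Dnmt3a was the clearest rise. It was at 872 to 1412 CPM against 278 to 647 at E4.5 and 280 to 618 at E6.5, with no overlap (log2 1.43 ± 0.14, adjusted p = 2.58e-08). Pou3f1 was also called (1.61 ± 0.33, adjusted p = 0.00202), but its E5.5 range lay within that of E6.5 (49.8 to 173 CPM). Nanog, with a median of 10.6 CPM, was called lower than the mean of the other stages (log2 -3.17 ± 0.50, adjusted p = 0.000116). It was at 77.7 to 137 CPM at E4.5 and 3.22 to 249 at E6.5, and its E5.5 range lay within that of E6.5. Klf5, Tbx3 and Tfcp2l1 were the other 3 of 11 naive genes called lower in this contrast. Against E6.5 alone, 2 of the 11 naive genes were called lower and 3 higher. Core pluripotency genes had 0 of 7 called.

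A few genes that answer FGF or build the basement membrane were called lower. Spry2, a feedback inhibitor that FGF induces, was at 14.2 to 78.3 CPM against 93.6 to 408 and 42.7 to 581 (log2 -2.93 ± 0.42, adjusted p = 4.23e-05), and Spred1 and Spred2 were called as well, 3 of 16 genes of a list whose median log2 change was -0.09. Spred2 lost its call in 17 alternatives. Embryo 9 held the 78.3 CPM, and the other E5.5 embryos lay at 30.3 CPM or less. Laminin and collagen genes Lama1, Lamc1, Col4a1 and Col4a2 were lower, and Col18a1 higher, 5 of 16 matrix genes, but Col4a2 lost its call in 21 alternatives and Lamc1 in 14. Against E4.5 alone 7 of the 16 matrix genes were lower and 0 higher, and against E6.5 alone 3 were lower and 3 higher. Laminins and collagens are also made by endoderm. The visceral endoderm list summed to 573 to 2198 CPM at E4.5 and 348 to 4586 at E6.5, against 128 to 283 at E5.5. The yolk sac gene Afp was at 12.8 to 135 CPM at E6.5, against 0 to 3.98 CPM at E5.5. Of 10 visceral endoderm genes 5 were lower than the mean of the other stages, and the part of endoderm RNA in the matrix values was not tested. Among 12 polycomb genes Jarid2, Suz12 and Mtf2 were lower than the mean, but Suz12 lost its call in 17 alternatives and Mtf2 in 10. Against E6.5 alone 0 of the 12 polycomb genes were called. Among 30 mitosis genes Ube2c, Nusap1, Arl6ip1 and Kif23 were lower than the mean.

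With TMM scaling, 10 called genes had every E5.5 embryo below all others. Apom, an apolipoprotein of endoderm, fell the most (log2 -4.65 ± 0.67, adjusted p = 4.03e-05). It is in the visceral endoderm list, which summed to 573 CPM or more at E4.5 and 348 or more at E6.5, against at most 283 at E5.5. The part of endoderm RNA in this fall was not tested. Flrt3, an adhesion protein linked to FGF signalling, was at 0.51 to 7.46 CPM at E5.5, 15.5 to 254 at E4.5 and 7.15 to 69.1 at E6.5, so that in plain CPM 1 E6.5 embryo lay within the E5.5 range (log2 -3.92 ± 0.52, adjusted p = 1.03e-05). Enah, an actin regulator, fell by 1.77 ± 0.30, Kdelr2, the retrieval receptor of the endoplasmic reticulum, by 1.45 ± 0.23, and Scfd1 and Cltc, of vesicle traffic, by 1.29 ± 0.22 and 1.28 ± 0.24. Adjusted p values of these 4 lay between 0.000106 and 0.000792.

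Against E4.5 alone, 5.14% of the genes tested were higher at E5.5 and 3.09% lower. Naive pluripotency genes had 9 of 11 lower and none higher, among them Esrrb, Klf2, Klf4 and Tcl1. Epithelial genes had 7 of 14 higher. Krt18, a keratin of simple epithelia, had a median of 122 CPM and a highest value of 182 CPM against 0 to 33.0 (log2 3.66 ± 0.81, adjusted p = 0.00335), and Cldn7, a tight junction claudin, at 91.8 to 155 against 7.90 to 44.1 (2.24 ± 0.32, adjusted p = 1.51e-05). Imprinted genes had 5 of 16 higher, with Snrpn at 619 to 944 CPM against 196 to 354 (1.44 ± 0.19, adjusted p = 6.77e-06), and H19, Meg3, Grb10 and Nnat. Among genes of DNA methylation Tet2, Zfp57, Dnmt3l and Tet1 were lower, Zfp57, which protects imprints, with 2.26 to 24.7 CPM against 144 to 162 (-3.74 ± 0.78, adjusted p = 0.00185).

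Against E6.5 alone, 6.01% were higher and 5.44% lower. Germline-associated genes had 7 of 10 higher and none lower. Dppa5a was at 3010 to 4818 CPM against 133 to 608 at E6.5 (log2 3.53 ± 0.19, adjusted p = 1.09e-14), and Aire, the autoimmune regulator, at 56.1 to 173 CPM against at most 0.31 (11.27 ± 0.51, adjusted p = 8.78e-17). At E4.5 Dppa5a was higher still, with 9833 CPM or more, and Aire was at 90.1 to 309 CPM and was not called against E5.5. The integrated stress response had 7 of 18 higher. The Nodal pathway had 4 of 16 higher, namely Nodal, Lefty1, Gdf3 and the nuclear partner Foxh1, and Cer1 and Smad4 lower, with Cer1 at 0 counts in the E5.5 sums. Streak genes had 7 of 10 lower, Eomes with 3.38 to 21.6 CPM against 37.6 to 290 (-3.32 ± 0.41, adjusted p = 1.19e-06), although the E6.5 cells were limited to little T. In the same contrast 8 of 10 visceral endoderm and 4 of 8 anterior visceral endoderm markers were lower. Cer1, Foxa2 and Eomes are made by endoderm as well, and the part of endoderm RNA in the streak and Cer1 values was not tested. Fgf5 and Otx2 were lower at E5.5, with log2 changes of -1.45 ± 0.47 and -1.25 ± 0.20 (adjusted p = 0.0328 and 3.98e-05). Both were also expressed in the E5.5 endoderm cells, and the part of endoderm RNA in the E6.5 sums in this difference was not tested.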

How the data were processed

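The authors deposited 1 table of raw read counts per gene for all 721 cells, which is the unit used here. Per the submitters' processing notes, reads were trimmed with Trim Galore 0.4.3 and mapped to GRCm38 with HISAT2 2.0.5. By the study's methods, reads with a mapping quality under 20 were dropped, and cells needed at least 4000 detected genes and at most 10% mitochondrial reads. Whether counting used strand is not given in the sources used here. The rows cover chromosomes 1 to 19, and other chromosomes were not analysed here. There were no molecular identifiers, so floors cover counting error only.

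Counts were scaled to CPM. Members were summed per embryo (at least 3 cells), normalized by TMM, filtered with filterByExpr and tested with edgeR 4.0.16 (R 4.3.3; quasi-likelihood, Benjamini-Hochberg over all genes). DESeq2 1.42.0 was an alternative. Embryos are separate animals. Members and the 35 lists were chosen with earlier results of these data known, and the promoter motif after the change of its list was seen. The text names markers, genes of the lists, genes among the 20 highest per length (1 result is not reported here), the 20 most variable, called plate genes, the 10 largest rises and 10 largest falls with every E5.5 embryo outside all others, and the leading genes of the components. Exon lengths and positions came from GENCODE mouse release 21 by symbol (23482 of 24483 rows). On simulated counts for the plate test (15488 genes), 6 of 67, 26 of 67 and 45 of 66 genes changed by 2-, 4- and 8-fold were recovered, with 14 other calls. For E5.5 against the mean (12817 genes) these were 6 of 67, 35 of 67 and 46 of 66, with 2 other calls. Variability, components, correlations and shares are descriptions with no test.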

Additional observations from a re-analysis of the deposited data

Results flagged for a closer look

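Values of 81 measures over the 8 embryo sums (35 list sums and 46 genes) were screened for a highest or lowest embryo whose gap to its neighbour is large for the range of the group. Chance flags about 1 in 20 such groups, and 3 stood out. Lrrcc1 was at 178 CPM in embryo 9 of P1, with the next embryo at 34.8 CPM. The anterior visceral endoderm list summed to 369 CPM in embryo 3, with the next embryo at 206 CPM, and 224 CPM of that sum was Lefty1, which the epiblast also makes. The oxidative phosphorylation list summed to 17429 CPM in embryo 6, with the next embryo at 18882 CPM. What sets these embryos apart was not tested.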

How the results depend on the processing

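Of 84 named genes called against the mean of E4.5 and E6.5, 56 kept the call in every alternative and 28 lost it in at least 1, most often Col4a2 (21 alternatives), Cdkn1a (20), Nodal (19), Spred2 and Suz12 (17 each), Ccng1 and Lamc1 (14 each). Afp reversed (0.22) without embryo 5 of E4.5 P2, over a range of -4.50 to 0.22 when single embryos were left out. Without a filter on low counts 3457 genes were called against E6.5 (main 1467) and 1463 against the mean (main 813). Leaving out single embryos gave 766 to 1165 genes against E4.5, 1224 to 1616 against E6.5 and 647 to 932 against the mean. The plate test called 1 gene, 72 with no filter, 22 by DESeq2, 0 from single wells, 0 with sums of at least 1 cell, and 0 to 8 without single embryos. For P1 these were 15, 23, 2, 0, and 1 to 2. With no filter and by DESeq2, P2.P3 gave 11 and 40, P7.P4.P5 gave 40 and 125, and P11.P6.P10 gave 13 and 33, and without single embryos 0, 0 to 7, and 0 to 6. Genes variable in all embryos numbered 235, 146 with a mean of at least 50 CPM, 401 by the SD of log2(CPM + 1), by which Dqx1 reversed (-0.0399), and 274 to 327 without single embryos. By that SD only 2 of the 20 most variable genes stayed among the top 20, and 13 stayed above 0 in all embryos (not Dqx1, Cdkn1a, Zfp934, Fam136a, Arl5c, Zfp958 and Fasn). With double wells 318 genes were variable and 13 of the 20 stayed among the top 20. With thinned counts these were 212 and 15, and Trp53inp1 and Gm14139 were not above 0 in all embryos. The share of spread between cells was 94.2% in single wells, 95.2% with thinned counts and 95.2% with a pseudocount of 10. The alternative without 13 members that stand apart was chosen after seeing the data. The causes of these moves were not tested. No paired analysis was possible because embryo numbers at different stages or plates name different embryos. E4.5 rests on 5 embryos and 32 cells, so genes at 0 counts there have a floor of 0.137 CPM, and P1 holds 1 embryo, whose spread is taken to be like that of the others.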
